A study of Homo sapiens with 33 samples.

Results

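The genes described here are 43 genes of glycolysis and of the transcriptional response to low oxygen. They were chosen by name: each is the row, in all 33 gene count files, whose Ensembl identifier maps to a listed symbol, and together they are 43 of 62446 gene rows. The list was not built from a difference between groups, but it was drawn up with earlier results of these data known. All 43 were found in every library. By role they are 2 glucose transporters, 15 glycolytic enzymes, 3 enzymes that make or remove fructose bisphosphate signals for phosphofructokinase, 4 genes of the lactate step, 4 pyruvate dehydrogenase kinases, 2 hypoxia-inducible factors, 2 prolyl hydroxylases that act on them, and 11 further hypoxia targets.

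Transcripts were sequenced in 33 libraries, 3 for each of 11 groups of acute lymphoblastic leukaemia (ALL) lines of human origin. Nalm6 is a B-cell precursor line, TLE1 KO is Nalm6 with the co-repressor gene TLE1 knocked out, and CEM is a T-cell line. CHIR-99021 inhibits the kinase GSK3 and so activates Wnt signalling, while prednisolone and dexamethasone are glucocorticoids. The study set out to look at how Wnt and glucocorticoid signalling affect each other in ALL. Parental Nalm6 was sequenced untreated, with CHIR-99021 at 0.5 µM and with prednisolone at 5 µM. By sample number this prednisolone group stands with the CEM and dexamethasone groups, apart from the untreated group it is compared with here. Whether those were run together is not known here. A separate pair of Nalm6 groups, named for the dexamethasone experiment, was sequenced untreated and with dexamethasone at 100 nM. TLE1 KO cells were sequenced untreated, with prednisolone at 5 µM and with dexamethasone at 100 nM, and no untreated group of the knockout is named for the dexamethasone experiment. CEM was sequenced untreated, with CHIR-99021 at 2 µM and with prednisolone at 10 µM. Every treatment lasted 24 h. The parental and knockout cells shared a culture medium with charcoal-stripped serum, which removes steroids. The labels do not say whether the knockout line is 1 clone. Their treatment text swaps the drugs of the parental and knockout lines relative to the titles, and the titles were followed here. Independent experiments are stated for the CHIR-99021 groups of Nalm6 and the prednisolone groups of the knockout. For the other groups nothing says that the libraries came from separate cultures, so their p-values measure only the spread between those libraries, which may be technical.

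Glycolysis splits glucose into pyruvate in the cytosol: transporters bring glucose in, hexokinases trap it, phosphofructokinase sets the pace, and the lower enzymes recover energy before lactate dehydrogenase turns pyruvate into lactate. Pyruvate dehydrogenase kinases close the other exit, into mitochondria. When oxygen is short, prolyl hydroxylases such as EGLN1 stop marking the hypoxia-inducible factors HIF1A and EPAS1 for destruction, and these factors then raise transcription of most of the genes above. Dividing leukaemia cells run glycolysis hard with oxygen present, and the same genes are also driven by growth signals and by MYC.

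Hypoxia-inducible factors bind the letters ACGTG, or GCGTG, on either strand. The promoters of LDHA, BNIP3, ALDOC, P4HA1 and PFKFB4, picked by hand as examples, are shown. Those of other members are not printed. Each is the 250 bases before the RefSeq start on GRCh38.p14, printed in the direction of the gene with ACGTG or its reverse complement CACGT in capitals; capitals of 6 letters are the palindrome CACGTG, where both overlap.
LDHA (chr11:18394313-18394562, plus strand): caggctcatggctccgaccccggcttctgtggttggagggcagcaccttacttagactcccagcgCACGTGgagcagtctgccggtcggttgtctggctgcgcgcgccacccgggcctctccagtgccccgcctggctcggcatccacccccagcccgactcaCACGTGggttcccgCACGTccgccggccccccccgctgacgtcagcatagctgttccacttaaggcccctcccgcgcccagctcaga
BNIP3 (chr10:131981924-131982173, minus strand): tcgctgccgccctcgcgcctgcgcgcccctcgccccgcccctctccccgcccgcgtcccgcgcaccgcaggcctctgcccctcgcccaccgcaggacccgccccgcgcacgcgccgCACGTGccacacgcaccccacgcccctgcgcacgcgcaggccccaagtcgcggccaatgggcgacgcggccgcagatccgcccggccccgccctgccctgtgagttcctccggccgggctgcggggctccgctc
ALDOC (chr17:28576896-28577145, minus strand): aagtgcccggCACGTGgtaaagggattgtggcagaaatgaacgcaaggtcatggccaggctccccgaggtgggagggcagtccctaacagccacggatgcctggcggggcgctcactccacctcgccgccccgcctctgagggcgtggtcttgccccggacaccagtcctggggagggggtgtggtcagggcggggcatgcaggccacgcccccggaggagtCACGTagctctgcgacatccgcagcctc
P4HA1 (chr10:73096867-73097116, minus strand): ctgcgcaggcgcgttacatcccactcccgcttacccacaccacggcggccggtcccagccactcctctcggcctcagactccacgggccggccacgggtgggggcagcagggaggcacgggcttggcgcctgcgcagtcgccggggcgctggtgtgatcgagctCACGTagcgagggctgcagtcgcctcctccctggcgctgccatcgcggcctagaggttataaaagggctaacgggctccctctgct
PFKFB4 (chr3:48556804-48557053, minus strand): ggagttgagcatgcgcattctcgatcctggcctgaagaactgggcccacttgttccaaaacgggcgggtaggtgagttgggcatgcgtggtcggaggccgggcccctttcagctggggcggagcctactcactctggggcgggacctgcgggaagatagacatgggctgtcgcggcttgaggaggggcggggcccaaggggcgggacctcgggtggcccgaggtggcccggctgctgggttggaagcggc
LDHA held 5 ACGTG matches, ALDOC 3, BNIP3 2, P4HA1 1 and PFKFB4 0, counting both strands, so that each palindrome counts as 2. GCGTG is not marked in the printed windows or in these counts, and the PFKFB4 window does hold it. RefSeq windows were at hand for 36 members, and not for HILPDA, SLC16A1, PFKFB2, VEGFA, SLC2A3, BNIP3L and NDRG1. At least 1 window held ACGTG for 22 of those 36 members (61.1%), beside 5935 of all 27305 genes with a window (21.7%). GCGTG was held by 20 of the 36 (55.6%) and by 36.2% of all genes, and the palindrome CACGTG, which contains ACGTG, by 9 (25%) and by 7.73%. These shares count a gene once if any of its windows matches, and the members had more windows per gene. They had 66 windows for 36 genes, beside 35116 for all 27305. Counted by window, ACGTG was in 37.9% of the members' windows and 18.5% of all. GCGTG was in 34.8% and 32.2%, which is near the share of all windows, and CACGTG in 13.6% and 6.34%. A match describes letters only, and says nothing of what binds there.

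Libraries held between 25292579 and 61930057 gene counts, so that 3 counts correspond to 0.0484 to 0.119 CPM (counts per 1000000 gene counts of the library); such limits cover counting error only. The libraries fitted their labels by lineage: 7 B-lineage markers summed to 1840 to 2510 CPM in the Nalm6 and knockout libraries and to 59.1 to 96.3 in CEM, 6 T-lineage markers summed to 24.2 to 49.4 and to 1620 to 1770, and 6 markers of monocytes, erythroid cells and fibroblasts to 0.501 to 7.86. TLE1 itself, with its transcript still present in the knockout, was at 30.2, 34.0 and 31.8 CPM in untreated Nalm6 and at 25.4, 24.0 and 24.0 in the untreated knockout. TSC22D3, a gene that glucocorticoids induce, rose in every glucocorticoid comparison, by 3.99 (Nalm6, prednisolone), 5.23 (Nalm6, dexamethasone), 4.37 (knockout, prednisolone) and 5.96 (CEM, prednisolone) on the log2 scale. Replicate 3 of Nalm6 with CHIR-99021 stood apart from its group, and results resting on it are given with and without it. In bulk RNA, fewer cells with a transcript and less of it per cell cannot be told apart.

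Below, a gene is called changed at an adjusted p under 0.05 in edgeR's quasi-likelihood test over all genes tested (Benjamini-Hochberg), log2 differences are given with their standard error, and each group has n = 3. Where members called in different comparisons are set side by side, the overlap over all genes was not worked out. The map of log2 differences shows all members in 9 comparisons.

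**Figure D1:**
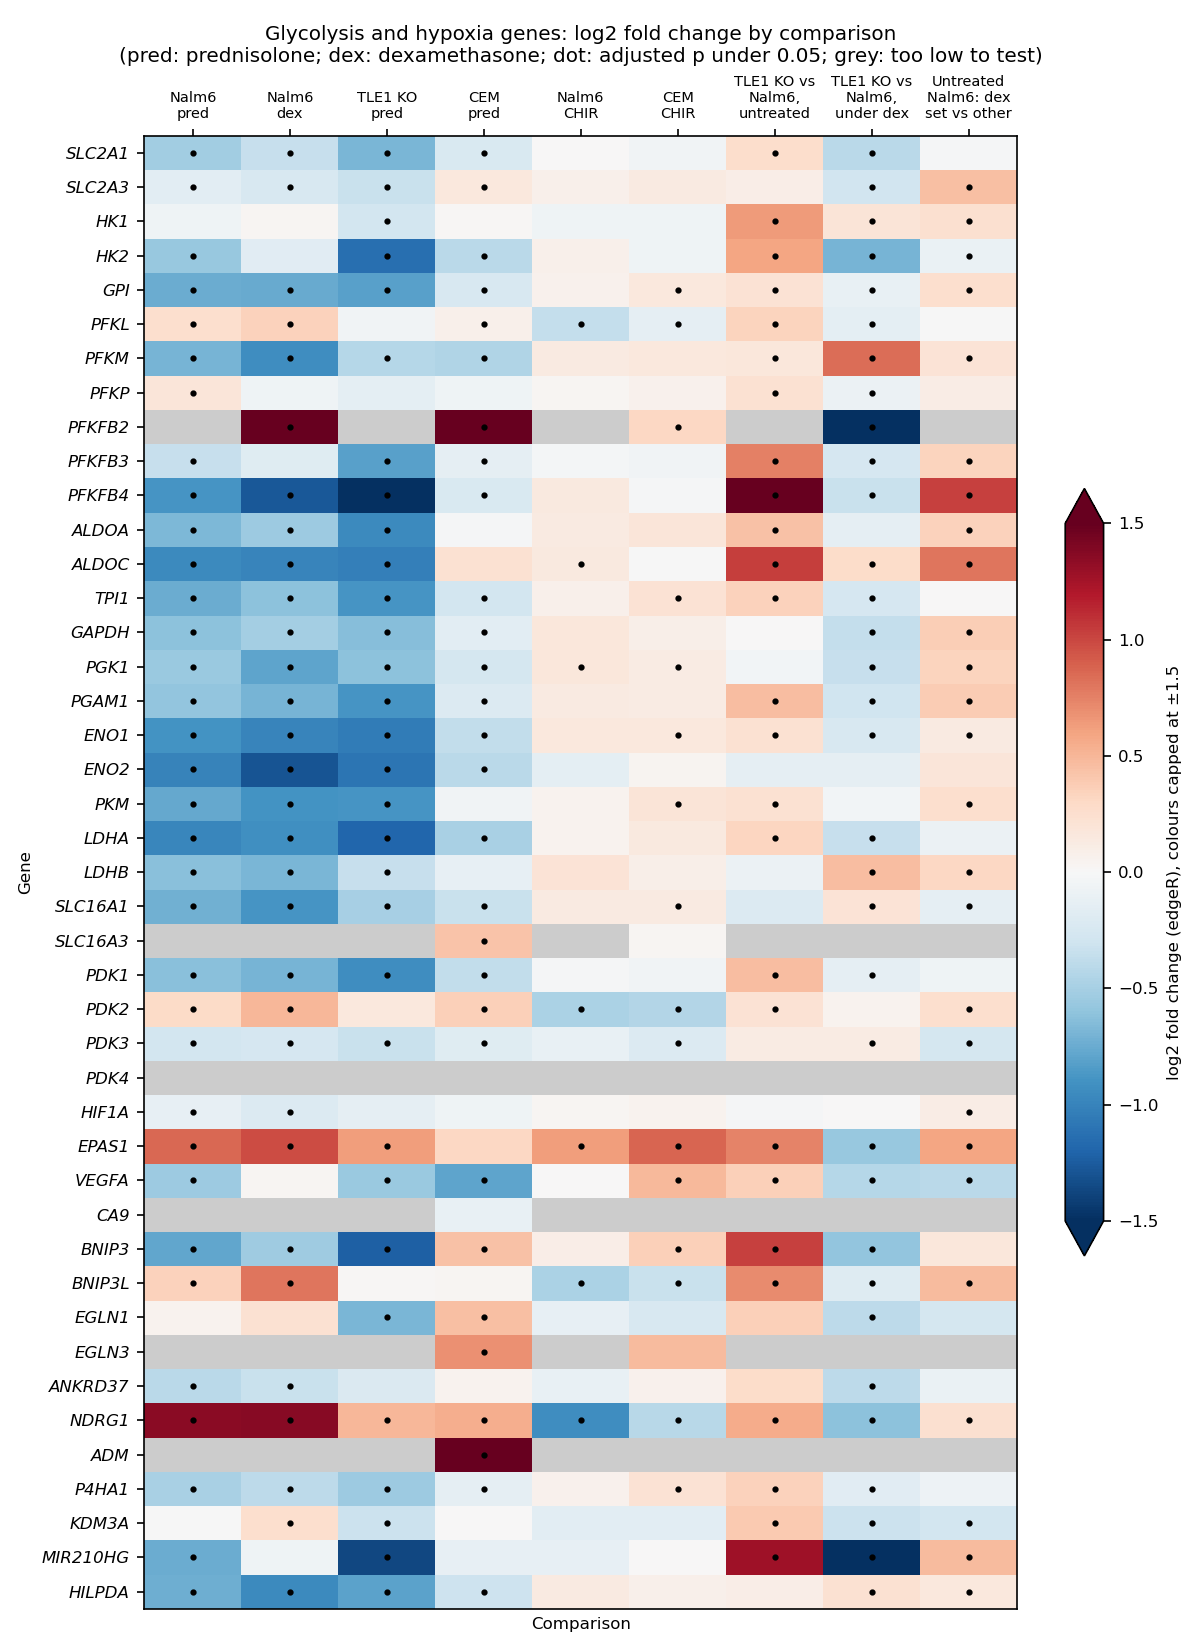
Log2 differences of the 43 genes (rows, in pathway order) in 9 comparisons (columns); red is higher and blue lower in the first-named group, the colour scale ends at 1.5 in each direction, dots mark calls at an adjusted p under 0.05 and grey cells were not tested. The columns for prednisolone and dexamethasone in Nalm6 and prednisolone in the knockout are mostly blue, and that for the untreated knockout is mostly red, with no member called lower.

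Levels in untreated cells come first. Per kilobase of exon, the lower glycolytic enzymes led in untreated Nalm6: GAPDH stood at 1220 CPM per kilobase, ENO1 (enolase) at 328, TPI1 at 177, PKM (pyruvate kinase) at 124 and PGK1 at 101, with LDHA (lactate dehydrogenase) at 94.4. At the other end, NDRG1, a stress-responsive hypoxia target, was at 0.672 and EPAS1 at 0.452 CPM per kilobase. In Nalm6, 6 members were too low to test without a glucocorticoid (PFKFB2, SLC16A3, PDK4, CA9, EGLN3 and ADM), and PFKFB2 alone passed with dexamethasone. PDK4 had too few counts for a test in any comparison, with a highest library of 0.285 CPM. ALDOA, usually the main aldolase, was at only 12.2, 13.4 and 12.4 CPM in untreated Nalm6; in the gene models used here 42.3% of its exon length lies under another gene on the same strand, and such reads are counted for neither, so its level is uncertain. The same overlap covers 33.4% of LDHB and 13.2% of HILPDA. GAPDH, PGK1, TPI1, ENO1 and the lactate dehydrogenases have many pseudogene copies, and reads that could not be placed between copies are not in the counts.

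CEM and Nalm6 used different members of the same families. HK2, a regulated hexokinase, was at 56.9, 60.7 and 55.4 CPM in untreated CEM and at 223, 228 and 229 in untreated Nalm6, while HK1, the constitutive form, was at 185, 193 and 179 in CEM and at 67.6, 66.1 and 68.2 in Nalm6. ALDOC, the brain aldolase, was at 2.06, 2.30 and 2.39 CPM in CEM and at 51.4, 53.1 and 53.4 in Nalm6, whereas the neuronal enolase ENO2 was at 63.1, 68.8 and 62.3 in CEM and at 9.77, 11.3 and 11.4 in Nalm6. None of these groups overlapped. Among the lactate carriers SLC16A3, the carrier of highly glycolytic cells, had 3262 counts over the 3 CEM libraries and 2 over the 3 Nalm6 libraries, a depth-scaled ratio of 2190 (95% counting interval 605 to 18100), while SLC16A1 was only slightly lower in CEM, at 201, 190 and 196 CPM against 243, 231 and 232 in Nalm6. PFKFB2, which makes and removes the main activator of phosphofructokinase, had 1037 counts in untreated CEM and 0 in untreated Nalm6, at least 135-fold higher. Of the phosphofructokinases themselves, the liver and muscle forms PFKL and PFKM were lower in CEM and the platelet form PFKP was higher.

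Against the first untreated Nalm6 group, 20 of 41 members tested were higher in CEM (42.5% of all genes were called higher) and 17 were lower (40.3% of all genes). Against the untreated Nalm6 group of the dexamethasone experiment, which shares the CEM libraries, 15 of 40 were higher (40.2%) and 19 lower (37.3%). The share called lower in the second comparison lay above that of all genes, and the other shares lay nearer to theirs. PFKFB2, SLC16A3 and EGLN3, called higher in both comparisons, were too low to test in Nalm6 and passed the filter on low counts only through CEM. CA9, called higher in the first comparison and not tested in the second, passed in the same way. These genes could therefore only come out higher. Outside the low-count genes, NDRG1 differed most upward, by 3.25 and 2.99 log2 in the respective comparisons, followed by ENO2 (2.63 and 2.43) and HK1 (1.51 and 1.25). Downward the largest were ALDOC (-4.50 and -5.33), PFKM (-2.90 and -3.14), HK2 (-1.93 and -1.86) and VEGFA, the vessel growth factor (-1.93 and -1.55). EGLN3 and CA9, a hydroxylase and a carbonic anhydrase that hypoxia strongly induces, were low in every line: EGLN3 had 110 counts in untreated CEM against 1 in untreated Nalm6 (ratio 147, counting interval 25.9 to 5880), and CA9 had 36 against 0, at least 4.70-fold.

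**Figure D2:**
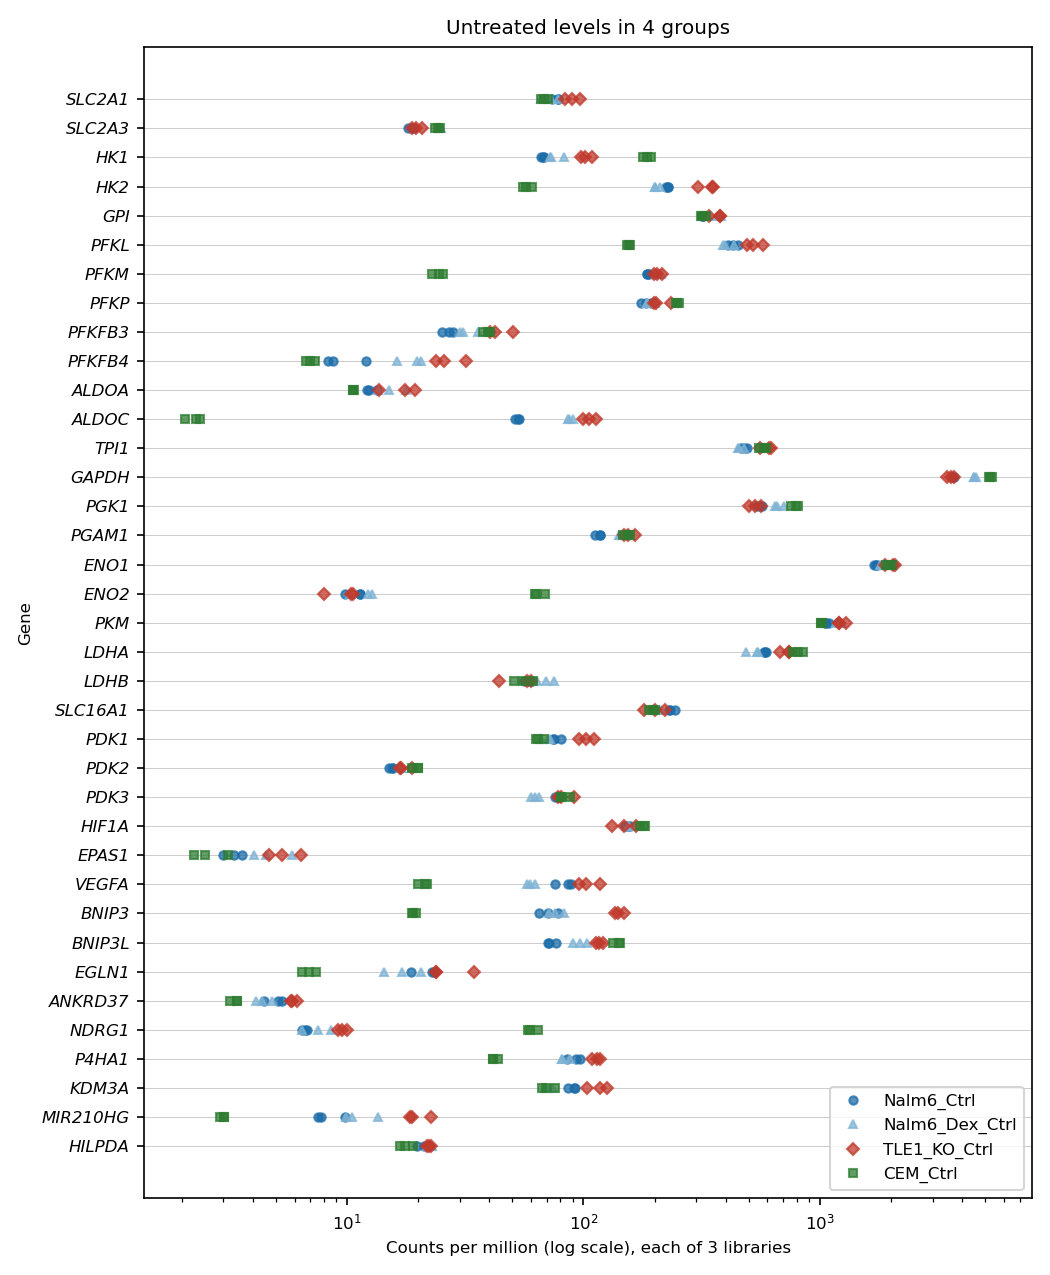
CPM (log axis) of the members tested in Nalm6, 1 point per library, in the untreated groups of Nalm6, Nalm6 of the dexamethasone experiment, TLE1 KO and CEM. CEM stands apart for ALDOC, PFKM, HK2, ENO2 and NDRG1, and the knockout lies highest for PFKFB4, MIR210HG and BNIP3.

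The separately named untreated Nalm6 groups also differed from each other in these genes. PFKFB4, which sets fructose bisphosphate signals and is a strong hypoxia target, was at 20.5, 16.2 and 19.8 CPM in the untreated group of the dexamethasone experiment and at 8.75, 8.35 and 12 in the other, a difference of 1.02 ± 0.13 log2 (adjusted p = 3.67e-05). ALDOC was at 90.3, 86.3 and 87.0 against 51.4, 53.1 and 53.4 (0.80 ± 0.04, adjusted p = 2.97e-08). Neither gene's groups overlapped. In the dexamethasone experiment's group 21 of 37 members were higher (25.8% of all genes) and 5 lower (24.4% of all genes), with a median difference of 0.18 for the members and 0.006 for all genes. EPAS1 (0.59 ± 0.13, adjusted p = 2.85e-03), MIR210HG, BNIP3L and SLC2A3 (0.45 ± 0.05, adjusted p = 1.36e-05) were the next largest. VEGFA went the other way, at 59.5, 57.8 and 62.4 CPM against 75.8, 85.8 and 88.4 (-0.41 ± 0.06, adjusted p = 8.12e-05), as did the histone demethylase KDM3A (-0.27 ± 0.04) and PDK3 (-0.26 ± 0.04). SLC16A1 (-0.13) and HK2 (-0.10) were called lower too, but SLC16A1 lost its call without any of 3 of the 6 libraries and HK2 without any of 4. TSC22D3 was lower in the dexamethasone experiment's group by 0.74 ± 0.07 log2. The set and the experiment it belongs to cannot be told apart.

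Prednisolone lowered most of the members in Nalm6. Of 37 tested, 28 fell (26.1% of all genes did) and 6 rose (28.7% of all genes), with a median log2 change of -0.57 for the members and 0.034 for all genes. The fall ran through the whole pathway: both glucose transporters, 12 of 15 glycolytic enzymes, both tested PFKFB genes, all 3 tested genes of the lactate step, 2 of 3 pyruvate dehydrogenase kinases and 6 of 9 tested hypoxia targets. LDHA went from 590, 578 and 589 CPM to 327, 293 and 292, a change of -0.98 ± 0.04 log2 (adjusted p = 7.97e-12). ENO1, among the most abundant members, went from 1750, 1700 and 1730 CPM to 959, 905 and 961 (-0.90 ± 0.04, adjusted p = 9.37e-12). In both genes every treated library lay far below every untreated one.

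ENO2 (-1.0 ± 0.08, adjusted p = 1.8e-08), ALDOC (-0.95 ± 0.05, adjusted p = 7.24e-11) and PFKFB4 (-0.89 ± 0.12, adjusted p = 8.19e-06) fell about as far as LDHA. Among hypoxia targets BNIP3, a mitochondrial protein that promotes mitophagy, fell most, from 65.1, 70.5 and 78.0 CPM to 44.1, 41.5 and 41.2 (-0.78 ± 0.06, adjusted p = 3.43e-09). GAPDH, often taken as a constant reference gene, went from 3710, 3610 and 3620 CPM to 2500, 2310 and 2500, and PKM from 1050, 1060 and 1090 to 670, 609 and 633. Both were called lower, and no treated library reached the untreated range. HIF1A itself moved little, from 158, 150 and 154 CPM to 145, 143 and 147, a call that was lost without any of 3 of the 6 libraries. The glucose transporter SLC2A3 lost its call without any of 5 of the 6.

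The 6 members that rose with prednisolone were NDRG1, EPAS1, BNIP3L, PDK2, PFKL and PFKP. NDRG1 went from 6.62, 6.75 and 6.43 CPM to 16.1, 17.2 and 18.1 (1.35 ± 0.07, adjusted p = 2.39e-11). EPAS1, the second hypoxia-inducible factor, went from 3.60, 2.98 and 3.33 to 6.11, 6.19 and 6.07 (0.86 ± 0.10, adjusted p = 1.19e-06). BNIP3L, the relative of BNIP3, rose by 0.35 ± 0.04 (adjusted p = 2.72e-06) while BNIP3 fell. Likewise PFKL rose from 409, 429 and 450 to 502, 516 and 545 CPM (0.25 ± 0.04, adjusted p = 1.27e-04) and PFKP by 0.18 ± 0.04 (adjusted p = 9.88e-04), while PFKM fell from 190, 185 and 185 to 117, 117 and 119. PDK2 rose by 0.29 ± 0.06 (adjusted p = 3.16e-04), whereas PDK1 and PDK3 fell. Paralogues of 1 step thus moved in opposite directions against this untreated group. EPAS1 and BNIP3L stood higher in the untreated Nalm6 group of the dexamethasone experiment. The prednisolone changes were not tested against that group.

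**Figure D3:**
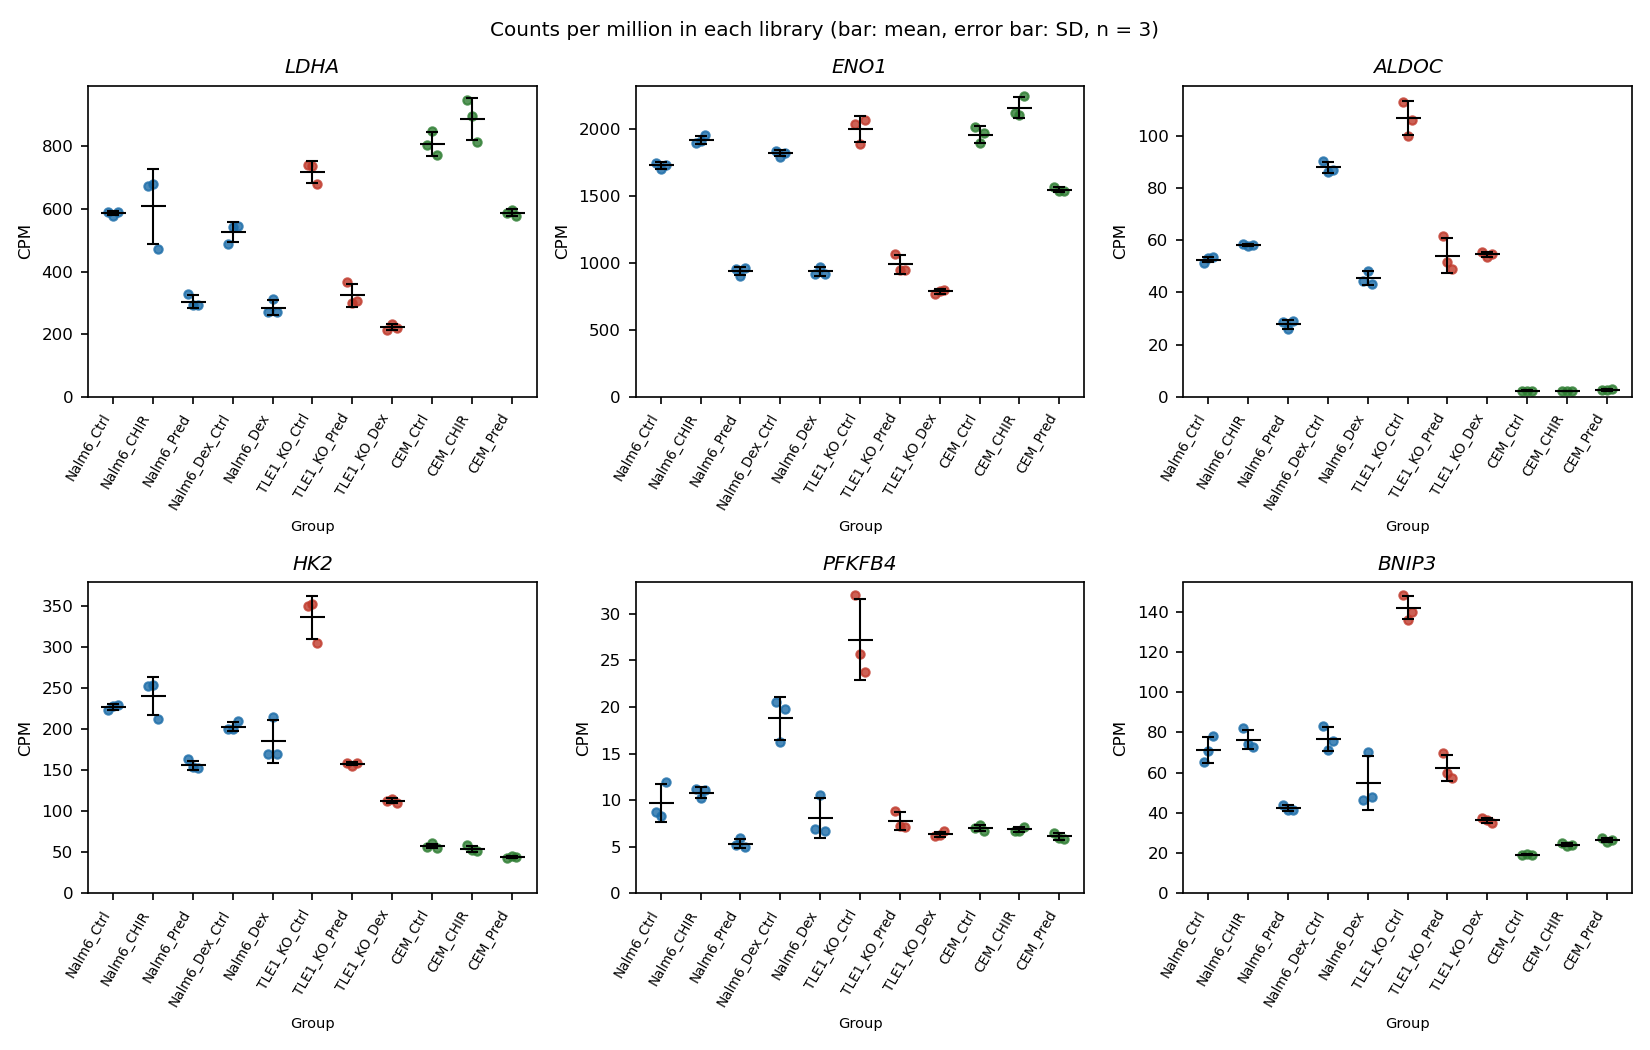
CPM of LDHA, ENO1, ALDOC, HK2, PFKFB4 and BNIP3 in each of the 33 libraries (points), by group, with bars for the mean and error bars for the SD (n = 3). The glucocorticoid groups of Nalm6 and of the knockout lie below their untreated groups for LDHA, ENO1, ALDOC and PFKFB4, and BNIP3 in CEM goes the other way with prednisolone.

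Dexamethasone, in its own pair of Nalm6 groups and at another dose, moved largely the same genes. Of 38 members tested, 24 fell (30.2% of all genes) and 7 rose (30.2% of all genes), with a median of -0.37 against 0.02 for all genes. PFKFB2, among the 7, passed the filter on low counts only through the treated libraries, so it could only come out higher. The comparisons share no library. All 24 members that fell with dexamethasone were among the 28 that fell with prednisolone, and 5 genes rose in both (PFKL, PDK2, EPAS1, BNIP3L and NDRG1), which is 5 of 6 with prednisolone and 5 of 7 with dexamethasone. Since no overlap over all genes was taken, it is not known whether other genes shared as much. ENO2 went from 10.3, 12.3 and 12.8 CPM to 4.90, 5.34 and 4.39 (-1.3 ± 0.10, adjusted p = 3.33e-08). PFKFB4 fell from 20.5, 16.2 and 19.8 to 6.94, 10.5 and 6.74 (-1.27 ± 0.14, adjusted p = 1.84e-06). ALDOC (-0.99 ± 0.05), ENO1 (-0.99 ± 0.04), HILPDA, a lipid droplet protein (-0.96 ± 0.06), and PFKM (-0.93 ± 0.04) followed, each with an adjusted p of 6.12e-09 or less.

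On the rising side NDRG1 went from 6.47, 8.52 and 7.52 CPM to 18.7, 21.3 and 19.0 (1.37 ± 0.09, adjusted p = 7.83e-09). BNIP3L went from 104, 90.0 and 97.2 to 167, 185 and 170 (0.80 ± 0.06, adjusted p = 2.14e-08), and EPAS1 rose by 0.98 ± 0.11 (adjusted p = 2.12e-06), with PDK2, PFKL and KDM3A rising less. PFKFB2 appeared: it had 0 counts in the 3 untreated libraries and 122 in the treated ones (1.18, 0.812 and 0.902 CPM), at least 10.4-fold higher. With prednisolone PFKFB2 had 13 counts against 0, at least 1.45-fold. Replicate 2 of the dexamethasone group was the highest of its 3 libraries for several hypoxia targets: BNIP3 was at 46.3, 70.1 and 48.1 CPM (71.4 to 83.1 untreated), HK2 at 170, 215 and 170 (200 to 210 untreated) and MIR210HG, the host transcript of the hypoxia-induced miR-210, at 9.48, 15.3 and 8.66 (9.88 to 13.5 untreated). For HK2 and MIR210HG it lay above the whole untreated range. HK2 (adjusted p = 0.0523) and MIR210HG (adjusted p = 0.794) were not called. Without that replicate 27 members fell, in place of 24. Since dose, experiment and untreated group all differ, the steroids were not compared with each other.

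Other genes of the same pathways moved with the steroids too, from lists chosen by general knowledge. Of 31 further glycolysis, transport and pyruvate genes tested with prednisolone in Nalm6, 19 fell (26.1% of all genes did) and 3 rose (28.7% of all genes), led by the insulin-regulated transporter SLC2A4 (-1.08 ± 0.09) and the monocarboxylate carrier SLC16A7 (-0.76 ± 0.06). With dexamethasone 19 of 31 fell and 4 rose, where 30.2% of all genes moved in each direction. Of 8 pentose phosphate genes 5 fell (26.1% of all genes) and 2 rose (28.7% of all genes) with prednisolone. RPIA fell by 0.74 log2, and H6PD, the enzyme of the endoplasmic reticulum, rose from 27.1, 28.8 and 24.6 CPM to 40.3, 42.6 and 45.2. A count of 2 rising in 8 is near the share of all genes. The further hypoxia targets were evenly split with prednisolone, with 14 of 35 falling (26.1% of all genes) and 15 rising (28.7% of all genes), a median of 0.02. STC2, a secreted glycoprotein, fell from 141, 142 and 151 CPM to 54.9, 50.5 and 50, and the stress gene DDIT4, also a glucocorticoid target, rose from 108, 114 and 118 to 251, 253 and 272. MYC fell by 1.0 ± 0.04 with prednisolone and by 1.08 ± 0.05 with dexamethasone. Its part in the falls of its glycolytic targets was not tested.

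Untreated TLE1 KO cells had higher levels of most members. Against untreated Nalm6, 26 of 37 were higher (15.3% of all genes) and 0 were lower (11.8% of all genes) in edgeR, with a median difference of 0.33 for the members and -0.008 for all genes. At an unadjusted p under 0.05, 1 member was lower (SLC16A1, -0.20, adjusted p = 0.0707), and DESeq2 also called 0 lower. The higher members were 12 of 15 glycolytic enzymes, both tested PFKFB genes, 7 of 9 tested hypoxia targets and EPAS1. PFKFB4 was at 32, 25.7 and 23.7 CPM against 8.75, 8.35 and 12 (1.5 ± 0.15, adjusted p = 9.86e-05). MIR210HG was at 22.6, 18.8 and 18.4 against 7.78, 7.57 and 9.81 (1.27 ± 0.12, adjusted p = 6.34e-05). ALDOC was at 113, 100 and 106 against 51.4, 53.1 and 53.4 (1.04 ± 0.05, adjusted p = 1.71e-06). For each of the 3 the lowest knockout library exceeded the highest parental one by a wide margin.

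BNIP3 stood next, at 148, 136 and 140 CPM against 65.1, 70.5 and 78.0 (1.02 ± 0.07, adjusted p = 1.0e-05). PFKFB3, the growth-regulated family member, was higher by 0.75 ± 0.08 (adjusted p = 1.87e-04) and EPAS1 by 0.74 ± 0.13 (adjusted p = 2.9e-03). HK2 stood at 350, 352 and 305 CPM against 223, 228 and 229. HIF1A, at 132, 148 and 167 against 158, 150 and 154, was not called, nor were GAPDH, PGK1, ENO2 or LDHB. Among the other lists, 18 of 34 further hypoxia targets were higher (15.3% of all genes) and 1 lower (11.8%), led by the repressor BHLHE40 (26.8, 22.1 and 17.9 CPM against 2.75, 3.51 and 4.35) and the collagen hydroxylase P4HA2 (31.1, 26.6 and 23.8 against 8.22, 8.24 and 10.7). In contrast TSC22D3 was lower in the untreated knockout by 1.52 ± 0.09 log2, and MYC differed by 0.07 ± 0.05.

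Which untreated Nalm6 group is taken as the reference changes this result. Against the untreated group of the dexamethasone experiment, in a comparison added after the data were seen and sharing the knockout libraries, 20 of 37 members were higher (19.5% of all genes) and 4 lower (17.0% of all genes). PFKFB4 was then higher by 0.50 log2 and ALDOC by 0.25, MIR210HG by 0.79, BNIP3 by 0.85, HK2 by 0.70 and VEGFA by 0.79, while EPAS1 was no longer called (0.16, adjusted p = 0.48). GAPDH (-0.36), PGK1 (-0.36), SLC2A3 (-0.35) and LDHB (-0.40) were lower. Against both references 17 members were called higher in the knockout, and the matching share of all genes was not worked out. BNIP3, HK2, MIR210HG and VEGFA were among them, each with no overlap between the knockout libraries and those of either reference. With 1 knockout line, the loss of TLE1 and other differences between the lines cannot be told apart.

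Prednisolone lowered most of the members in the knockout as well. Of 37 tested, 29 fell (21.9% of all genes) and 2 rose (19.8% of all genes), with a median of -0.64 for the members and -0.003 for all genes, and 8 fell by at least 1 log2. All 13 glycolytic enzymes that were called fell, as did both tested PFKFB genes and all 3 of the lactate step. PFKFB4 went from 32, 25.7 and 23.7 CPM to 8.86, 7.26 and 7.09 (-1.84 ± 0.13, adjusted p = 2.24e-06). BNIP3 went from 148, 136 and 140 to 69.5, 59.9 and 57.4 (-1.22 ± 0.08, adjusted p = 1.55e-06), and HK2 from 350, 352 and 305 to 159, 155 and 159 (-1.13 ± 0.07, adjusted p = 8.16e-07). In treated cells the HK2 ranges of both lines overlapped, since prednisolone-treated Nalm6 stood at 163, 154 and 153.

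LDHA (-1.19 ± 0.09, adjusted p = 3.1e-06), MIR210HG (-1.36 ± 0.17, adjusted p = 1.21e-04) and ENO2 (-1.09 ± 0.17, adjusted p = 5.21e-04) completed the largest falls. The members that rose were EPAS1 (0.63 ± 0.15, adjusted p = 7.44e-03) and NDRG1, from 10.0, 9.51 and 9.18 CPM to 12.9, 14.4 and 14.6 (0.50 ± 0.09, adjusted p = 1.11e-03). This comparison shares no library with that of parental Nalm6: 26 members fell in both, of 28 in the parental and 29 in the knockout line, and both members that rose in the knockout were among the 6 of the parental line. The sharing over all genes was not counted. PFKL, BNIP3L and PDK2 rose in parental cells against the first untreated Nalm6 group. They were not called in the knockout, at -0.05, 0.02 and 0.16 log2. Of the other lists, 13 of 29 glycolysis genes fell and 3 rose, and 13 of 34 further hypoxia targets fell and 8 rose (21.9% and 19.8% of all genes), STC2 again lowest (-1.39 ± 0.07).

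The difference between the responses of the knockout and the parental line was tested directly. Of 37 members, 6 fell further or rose less in the knockout (2.38% of all genes) and 1 fell less (1.1% of all genes). NDRG1 differed by -0.82 ± 0.11 (adjusted p = 2.68e-04), its rise being smaller in the knockout, and HK2 by -0.54 ± 0.08 (adjusted p = 1.01e-03), its fall being larger. Both held without any single library. PFKFB4 differed by -0.93 ± 0.20 (adjusted p = 0.0149), with an adjusted p of 0.0525 without replicate 2 of prednisolone-treated Nalm6. Its mean was 9.7 CPM in the untreated Nalm6 group used here and 18.8 in that of the dexamethasone experiment. The contrast was not run with that other group, so how far its differences depend on the group taken was not tested. The remaining calls were weak: PFKFB3 (-0.44 ± 0.10, adjusted p = 0.0194) was lost without any of 3 of the 12 libraries (replicates 1 and 2 of untreated Nalm6 and replicate 2 of the treated knockout), BNIP3 (-0.42 ± 0.11, adjusted p = 0.0478) and PFKM (0.29 ± 0.07, adjusted p = 0.0358) without any of 9, and PFKP (-0.31 ± 0.08, adjusted p = 0.0489) without any of 11. The other 30 members were not called in edgeR. DESeq2 called 2 of them lower, PGAM1 (-0.27, adjusted p = 0.0433) and PDK1 (-0.27, adjusted p = 0.0236). EGLN1 (-0.72, adjusted p = 0.113) was called with no filter on low counts (adjusted p = 4.28e-08) and in the fit of all 11 groups (adjusted p = 0.0224), but not in DESeq2 (adjusted p = 0.179). Without replicate 3 of the untreated knockout edgeR called 10 members lower and 2 higher.

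Under dexamethasone the knockout no longer stood higher. Against dexamethasone-treated Nalm6, 26 of 38 members were lower in the treated knockout (28.1% of all genes) and 7 higher (28.5% of all genes), with a median of -0.24 against -0.004. Of 9 tested hypoxia targets 8 were lower. MIR210HG was at 3.19, 2.73 and 3.58 CPM against 9.48, 15.3 and 8.66 (-1.79 ± 0.18, adjusted p = 4.14e-08), and HK2 at 113, 115 and 110 against 170, 215 and 170 (-0.70 ± 0.06, adjusted p = 2.63e-09). BNIP3 was at 37.2, 36.3 and 34.9 against 46.3, 70.1 and 48.1 (-0.59 ± 0.10, adjusted p = 4.82e-05). These 3 genes stood high in the untreated knockout, and here every knockout library lay below every parental one.

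NDRG1 (-0.61 ± 0.07), EPAS1 (-0.57 ± 0.08) and VEGFA (-0.43 ± 0.05) were lower as well, with adjusted p values of 6.78e-08, 5.21e-06 and 1.72e-07. PFKFB2, at 122 counts in treated Nalm6, had 4 in the treated knockout, a ratio of 19.7 (counting interval 7.51 to 73.6). It was tested only because of its counts in treated Nalm6, so it could only come out lower. PFKM was the clearest exception: it was at 198, 197 and 200 CPM in the treated knockout and at 111, 110 and 114 in treated Nalm6 (0.84 ± 0.03, adjusted p = 2.81e-15) and untreated knockout cells were at 205, 199 and 215. LDHB (0.46 ± 0.04, adjusted p = 1.14e-08), ALDOC (0.28 ± 0.04), HILPDA, SLC16A1, HK1 and PDK3 were the other members that were higher. Without an untreated knockout group of that experiment, a difference that dexamethasone made and a difference already there cannot be told apart.

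CHIR-99021 changed few members in Nalm6. Of 37 tested, 4 fell (4.72% of all genes) and 3 rose (3.16% of all genes), with a median of 0.05 against -0.007. NDRG1 went from 6.62, 6.75 and 6.43 CPM to 3.60, 3.66 and 3.12 (-0.93 ± 0.09, adjusted p = 3.4e-04). BNIP3L went from 70.5, 71.2 and 76.6 to 52.5, 49.6 and 54.0 (-0.48 ± 0.05, adjusted p = 4.14e-04). PDK2 fell by 0.48 ± 0.07 log2 (adjusted p = 3.09e-03) and PFKL by 0.36 ± 0.05 (adjusted p = 3.25e-03), from 409, 429 and 450 to 314, 336 and 349 CPM. These 4 falls held without any single library, and treated and untreated libraries did not overlap.

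The rises were less secure. EPAS1 went from 3.60, 2.98 and 3.33 CPM to 6.14, 5.08 and 4.28 (0.63 ± 0.13, adjusted p = 0.0178), and lost its call without replicate 1 of CHIR-99021 or replicates 2 or 3 of the untreated group, with an adjusted p of up to 0.0953. PGK1 (0.17 ± 0.04, adjusted p = 0.0447) and ALDOC (0.15 ± 0.04, adjusted p = 0.0463) kept their calls only when replicate 3 of CHIR-99021 was the library left out. That library was low for LDHA (673, 680 and 471 CPM in the treated group against 590, 578 and 589 untreated), HK1 (68.1, 71.2 and 53.5), HK2 (252, 254 and 212) and GPI (368, 350 and 289). Without it 11 members rose and 5 fell, LDHA among those that rose, while 1356 genes in all were called higher and 1352 lower, in place of 571 and 854. What set that library apart was not tested. Of the other lists, 2 of 31 glycolysis genes rose (3.16% of all genes) and 0 fell (4.72% of all genes) in edgeR, and DESeq2 gave the same counts for the list. At an unadjusted p under 0.05 11 rose and 0 fell, but the share of all genes at that threshold was not counted. Of 34 further hypoxia targets 4 rose (3.16% of all genes) and 5 fell (4.72%), led by the glycogen branching enzyme GBE1 (160, 161 and 160 CPM to 211, 205 and 211).

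**Figure D4:**
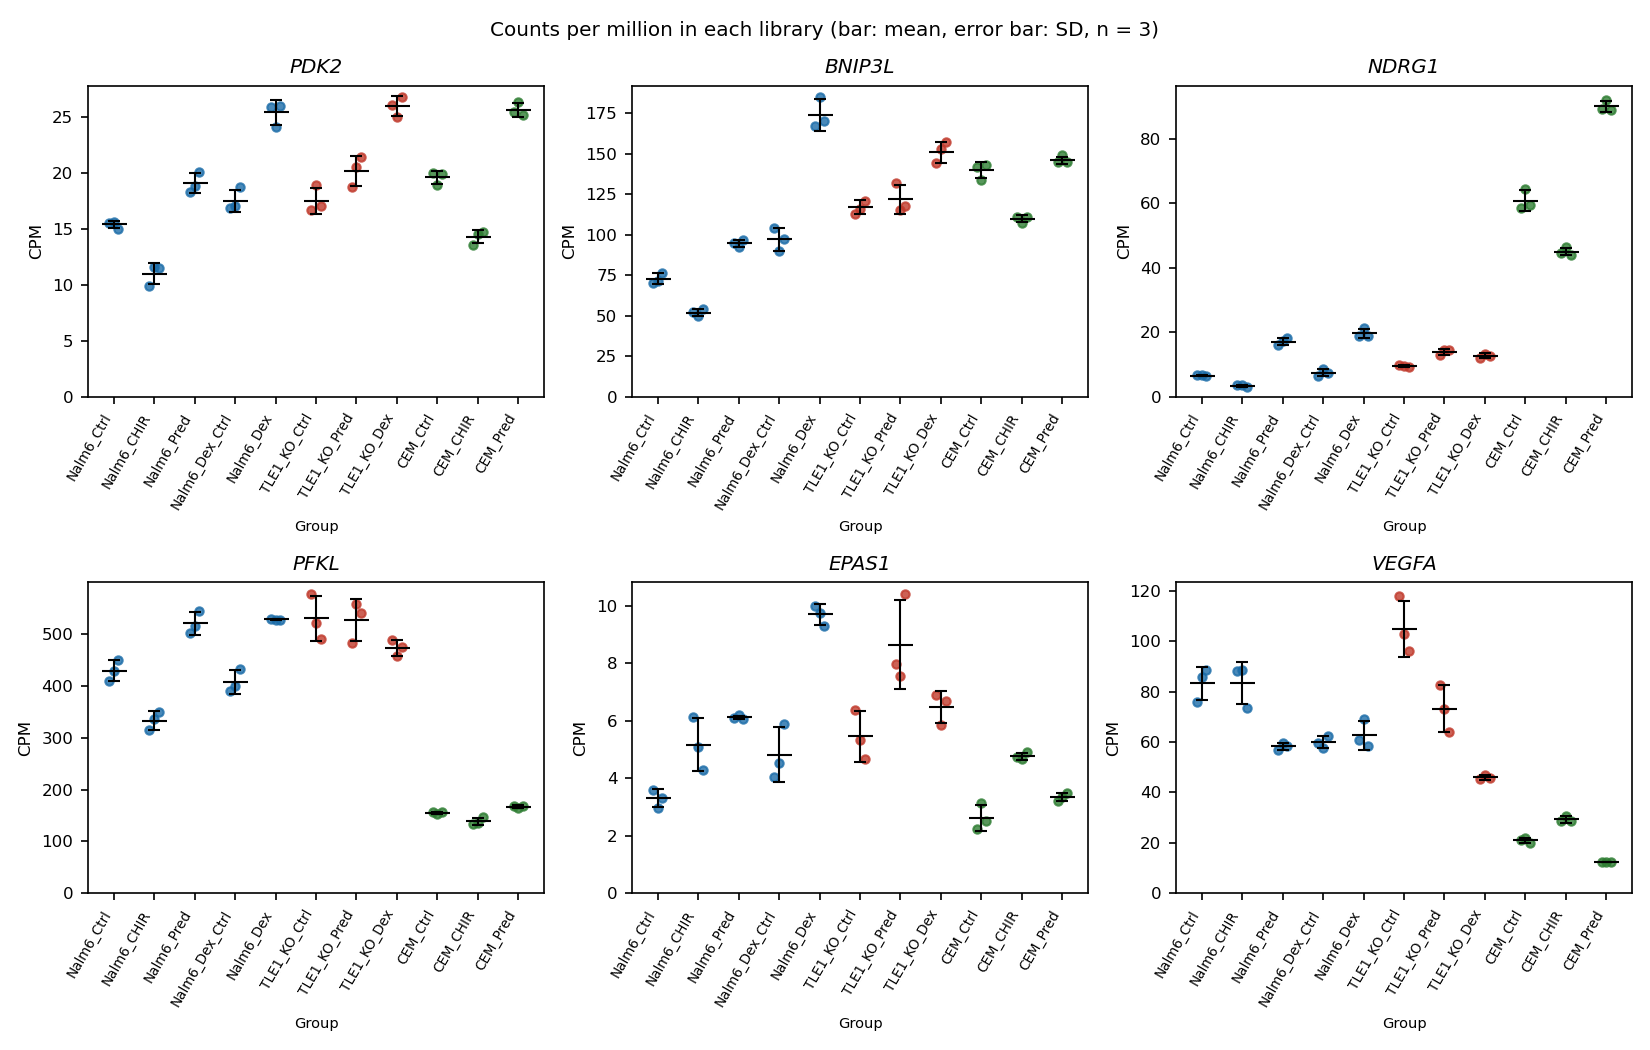
CPM of PDK2, BNIP3L, NDRG1, PFKL, EPAS1 and VEGFA in each of the 33 libraries (points), by group, with bars for the mean and error bars for the SD (n = 3). PDK2, BNIP3L, NDRG1 and PFKL lie lower with CHIR-99021 in Nalm6 and in CEM, and PDK2, NDRG1 and PFKL lie higher with prednisolone in both lines.

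In CEM, where CHIR-99021 was given at 2 µM, the same 4 genes fell. Of 40 members tested, 5 fell (5.43% of all genes) and 11 rose (5.41% of all genes), with a median of 0.08 against -0.005. The 4 members that fell in Nalm6 were 4 of the 5 that fell in CEM, and the CEM and Nalm6 libraries are separate. PDK2 went from 20, 18.9 and 19.9 CPM to 13.6, 14.5 and 14.7 (-0.44 ± 0.06, adjusted p = 4.23e-04). NDRG1 went from 58.4, 64.4 and 59.5 to 44.6, 46.3 and 44.0 (-0.42 ± 0.05, adjusted p = 1.68e-04), and BNIP3L from 142, 134 and 143 to 111, 107 and 111 (-0.33 ± 0.04, adjusted p = 2.75e-04). No treated library of the 3 genes reached an untreated one. PFKL (-0.14 ± 0.04, adjusted p = 0.0435) lost its call without any of 5 of the 6 libraries, and PDK3 (-0.20 ± 0.05, adjusted p = 0.0234) without replicate 2 of the treated or replicate 3 of the untreated group.

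EPAS1 rose in CEM as well, from 2.25, 3.14 and 2.51 CPM to 4.75, 4.66 and 4.90 (0.87 ± 0.12, adjusted p = 8.51e-04), and there the call held without any single library. VEGFA went from 21.3, 21.8 and 20 to 28.7, 30.7 and 28.5 (0.49 ± 0.05, adjusted p = 1.28e-04), and BNIP3 from 18.9, 19.5 and 19.0 to 25, 23.7 and 24.0 (0.36 ± 0.05, adjusted p = 8.21e-04). In Nalm6 neither VEGFA (0.00 ± 0.08) nor BNIP3 (0.10 ± 0.07) was called with CHIR-99021, and the difference between the lines was not tested. P4HA1, which hydroxylates collagen (0.22 ± 0.04, adjusted p = 4.54e-03), TPI1 (0.22 ± 0.04, adjusted p = 4.68e-03) and PFKFB2 (0.31 ± 0.07, adjusted p = 0.0174) followed, the last lost without any of 3 of the 6 libraries. Only 6 members rose without replicate 3 of untreated CEM, and 7 without its replicate 2. Every member that fell with CHIR-99021 in Nalm6 rose with dexamethasone in Nalm6: PDK2, BNIP3L, NDRG1 and PFKL are 4 of 4 and 4 of 7. These comparisons share no library. How many other genes did the same was not counted.

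Prednisolone in CEM, at 10 µM, lowered fewer members. Of 42 tested, 19 fell (22.8% of all genes) and 10 rose (22.3% of all genes), with a median of -0.12 against 0.015. All 19 were among the 28 that fell in Nalm6, an overlap that was not counted over all genes. VEGFA fell most, from 21.3, 21.8 and 20 CPM to 12.4, 12.6 and 12.4 (-0.79 ± 0.06, adjusted p = 2.74e-09). LDHA went from 805, 848 and 773 to 588, 598 and 578 (-0.49 ± 0.03, adjusted p = 1.6e-09), and ENO1 from 2020, 1900 and 1970 to 1570, 1540 and 1540 (-0.37 ± 0.03, adjusted p = 3.44e-09). The groups did not overlap for any of these. PFKM (-0.45 ± 0.05), HK2 (-0.41 ± 0.04) and ENO2 (-0.41 ± 0.04) also fell, while PKM, at 1020, 1010 and 1010 CPM untreated and 1010, 992 and 989 treated, was not called.

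PFKFB2 rose most among the members in CEM. It went from 8.49, 7.94 and 8.36 CPM to 170, 167 and 178 with prednisolone (4.34 ± 0.04, adjusted p = 3.42e-21), while CHIR-99021 left it at 10.1, 10.7 and 9.43. NDRG1 rose from 58.4, 64.4 and 59.5 to 89.2, 91.9 and 89.0 (0.54 ± 0.04, adjusted p = 3.49e-09). The lactate exporter SLC16A3 rose from 26.5, 24.9 and 26.8 to 35.5, 38.0 and 34.1 (0.43 ± 0.05, adjusted p = 1.22e-06). Both hydroxylases rose, EGLN1 from 6.91, 7.39 and 6.47 to 10.6, 9.22 and 9.23 CPM (0.45 ± 0.08, adjusted p = 2.21e-04) and EGLN3 by 0.69 ± 0.21 (adjusted p = 0.0129) at a level of about 1 CPM, its call lost without any of 3 of the 6 libraries. ADM, the vasodilator adrenomedullin, was below 1 CPM throughout, at 0.0867, 0.175 and 0.266 before and 0.668, 0.503 and 0.627 after. It is counted among the members that rose, but passed the filter on low counts only through the treated libraries. ADM could therefore only come out higher. BNIP3, which fell in Nalm6, rose in CEM from 18.9, 19.5 and 19.0 to 27.6, 25.4 and 26.4 CPM (0.44 ± 0.05, adjusted p = 1.12e-06).

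Among the other lists in CEM, the hexokinase-like HKDC1 rose from 2.51, 2.72 and 2.72 CPM to 44.0, 40.4 and 39.5 (3.93 ± 0.07), so that the gene with the largest rise in the wider glycolysis list was again nearly silent in Nalm6 (at most 0.0556 CPM). In that list 13 of 26 genes fell and 3 rose (22.8% and 22.3% of all genes). Of 34 further hypoxia targets 14 rose and 9 fell, led by the transcription factor NFIL3 (5.55, 5.44 and 5.38 CPM to 27.1, 27.0 and 28.1), DDIT4 (2.20 ± 0.03) and the lipoprotein receptor VLDLR (-1.08 ± 0.05). MYC fell by 0.81 ± 0.03.

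**Figure D5:**
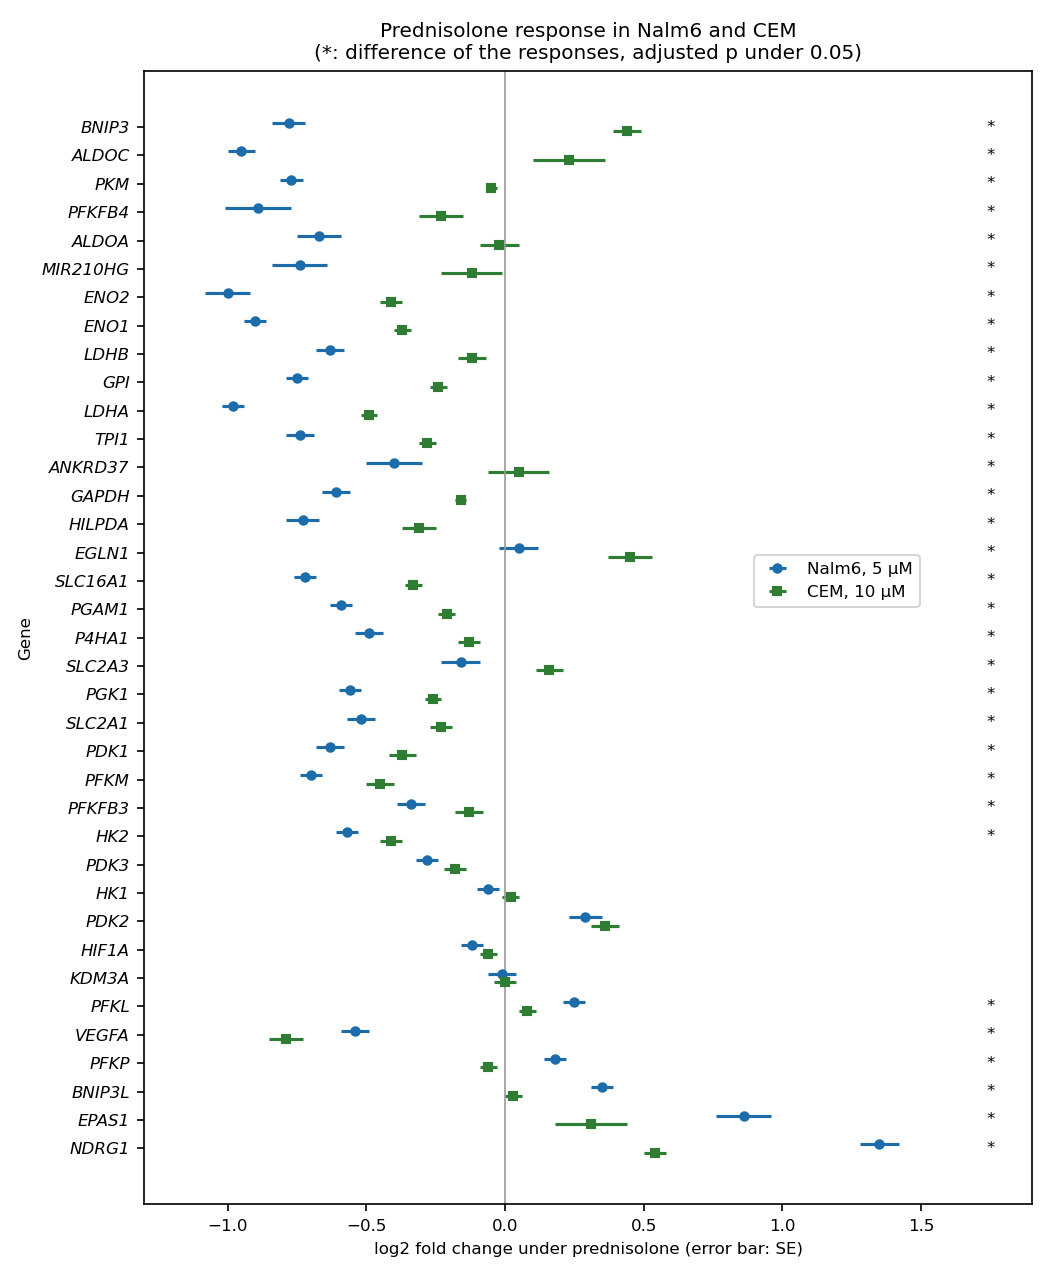
Log2 change with prednisolone, with its standard error, in Nalm6 (5 µM) and in CEM (10 µM) for the 37 members tested in both lines; an asterisk marks a difference between the lines at an adjusted p under 0.05. Most enzymes lie further below 0 in Nalm6 than in CEM, BNIP3 lies on opposite sides of 0, and NDRG1 lies further above 0 in Nalm6.

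The prednisolone responses of CEM and Nalm6, at unequal doses, were also set against each other in 1 fit. Of 42 members, 26 had a higher log2 change in CEM (14.7% of all genes) and 6 a lower one (12.2% of all genes), with a median difference of 0.33 against 0.015. Among the 15 glycolytic enzymes 12 fell less or not at all in CEM. BNIP3 differed by 1.24, ALDOC by 1.19, PKM by 0.74, PFKFB4 by 0.68, ALDOA by 0.66 and MIR210HG by 0.63. NDRG1 (-0.81), EPAS1 (-0.53), BNIP3L (-0.30), PFKP (-0.23), VEGFA (-0.23) and PFKL (-0.16) had the lower change in CEM, EPAS1 losing its call without replicate 2 of untreated CEM (adjusted p = 0.096), VEGFA without any of 5 of the 12 libraries and PFKL without any of 8. The line and the dose cannot be told apart in this contrast. Prednisolone-treated Nalm6 also stands apart, by sample number, from the untreated group used here. In the other untreated Nalm6 group 21 of 37 members were higher than in this one and 5 lower. The contrast was not run with that other group.

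The 4 comparisons of glucocorticoid with untreated cells share no library. LDHA, PFKFB4 and the enzymes GPI, PFKM, TPI1, GAPDH, PGK1, PGAM1, ENO1 and ENO2 fell in each of them. So did SLC2A1, SLC16A1, PDK1, PDK3, P4HA1 and HILPDA. NDRG1 rose in all 4 and fell in both CHIR-99021 comparisons, and PDK2 fell with CHIR-99021 in both lines and rose with prednisolone in Nalm6 and CEM and with dexamethasone in Nalm6. HIF1A ranged only from 132 to 184 CPM over the 33 libraries, whereas EPAS1 ranged from 2.25 to 10.4.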

How the data were processed

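Counts of reads per gene were deposited for each of 33 libraries, in a layout of 1 unstranded and 2 stranded columns. The submitters' processing notes name Bowtie2, DESeq2 and the build hg19; versions, annotation and read filters are not given in the sources used here. The stranded column 4, holding 12.3 to 15.3 times the counts of column 3, was used. The 4 summary rows without a gene were dropped first; by library they held 2.84% to 11.2% (unmapped), 4.83% to 7.55% (multiply mapped), 18.4% to 32.7% (outside genes) and 4.7% to 7.45% (ambiguous). Such counts hold uniquely placed reads only, which lowers genes with near-identical copies.

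Each comparison was fitted alone on its groups with edgeR 4.0.16 (limma 3.58.1, R 4.3.3): filterByExpr, TMM, the quasi-likelihood test and Benjamini-Hochberg adjustment over all genes tested, called at an adjusted p under 0.05. The fit was checked on simulated counts. CPM is a count over the library's gene total times 1000000, per kilobase over the exon length in GENCODE v29 where genes were compared. Promoter windows of 250 bases came from RefSeq on GRCh38.p14, not the submitters' build, and no coordinates were carried over. Folds against groups at 0 use a floor of 3 counts in that group's shallowest library, and other low-count ratios have 95% exact intervals.

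The members, gene lists and tests were chosen with earlier results of these data known. All members may be named with levels; those given with a fold change are up to 6 largest rises and 6 largest falls per comparison among called members with an average log2 CPM of at least 0, and from each other list up to 2 of each with at least 1. Low-level ADM, SLC2A3, HIF1A, SLC16A1 and genes not called were named after their values were seen. Alternatives were DESeq2 1.42.0, RLE size factors, no filter, a minimum of 10 counts per library, the unstranded column, all 11 groups in 1 fit, the replicate number as a block, each library left out, and, added after seeing the data, the other untreated Nalm6 group as the knockout's reference. Replicate pairs differed by more than sampling noise (chi-square per degree of freedom 1.85 to 43.7), so none were merged.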

Additional observations from a re-analysis of the deposited data

Results flagged for a closer look

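These members had prednisolone responses that differed between lines by a test of the difference itself, in edgeR at an adjusted p under 0.05; values are the response of the first-named line minus that of the second, in log2. Knockout minus parental Nalm6, both at 5 µM: HK2 differed by -0.54, PFKP by -0.31, PFKFB3 by -0.44, PFKFB4 by -0.93, BNIP3 by -0.42 and NDRG1 by -0.82, all lower in the knockout, and PFKM differed by 0.29. Of these, HK2 and NDRG1 kept their calls without any single library. The contrast used the first untreated Nalm6 group and was not run with that of the dexamethasone experiment.

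CEM (10 µM) minus Nalm6 (5 µM), transporters, enzymes and the lactate step: the difference was positive for SLC2A1 (0.31), SLC2A3 (0.34), HK2 (0.17), GPI (0.53), PFKM (0.26), PFKFB3 (0.22), PFKFB4 (0.68), ALDOA (0.66), ALDOC (1.19), TPI1 (0.48), GAPDH (0.46), PGK1 (0.31), PGAM1 (0.39), ENO1 (0.55), ENO2 (0.60), PKM (0.74), LDHA (0.50), LDHB (0.53) and SLC16A1 (0.39). It was negative for PFKL (-0.16) and PFKP (-0.23).

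For pyruvate dehydrogenase kinases, factors and hypoxia targets in the same contrast, the difference was positive for PDK1 (0.27), BNIP3 (1.24), EGLN1 (0.41), ANKRD37 (0.46), P4HA1 (0.37), MIR210HG (0.63) and HILPDA (0.43), and negative for EPAS1 (-0.53), VEGFA (-0.23), BNIP3L (-0.30) and NDRG1 (-0.81). BNIP3 and SLC2A3 fell in Nalm6 and rose in CEM. Line and dose differ together in these values and cannot be told apart. The contrast used the first untreated Nalm6 group, and was not run with the other, which differed from it in many members.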

How the results depend on the processing

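The counts of members called for prednisolone in Nalm6, the knockout and CEM, for dexamethasone, for the CEM minus Nalm6 contrast, for the dexamethasone-treated lines and for CEM against Nalm6 stayed within 1.5 times their values under every alternative run. With CHIR-99021 in Nalm6, the 3 members called higher became 5 in DESeq2, 5 with no filter and 1 with the replicate block, and 0 to 11 with 1 library left out; over all genes the 571 called higher became 311 with the replicate block and 108 to 1356 with 1 left out, and the 854 called lower became 1525 with no filter and 299 to 1352. With CHIR-99021 in CEM, the 11 members called higher became 7 in the fit of all 11 groups and 6 to 10 with 1 library left out, the 5 called lower 3 to 6, and all genes 498 to 920 higher and 503 to 1028 lower. For the untreated knockout, the 0 members called lower became 1 with no filter, 1 in the fit of all groups (SLC16A1 in both), 4 against the other untreated Nalm6 group, and 0 to 1 with 1 library left out, when all genes ran from 1687 to 3518 higher and 1117 to 3214 lower. Against that other group SLC2A3 (0.10) turned to -0.35, GPI (0.22) to -0.02, PFKM (0.17) to -0.03, PKM (0.23) to -0.00 and PDK2 (0.22) to -0.03. For the knockout minus parental contrast, the 1 member called higher became 0 with no filter, 0 with the unstranded column, 2 in the fit of all groups and 0 to 2 with 1 left out, and the 6 lower became 3 to 10; all genes higher (197) became 314 in DESeq2, 306 with no filter, 125 with the unstranded column, 544 with all groups and 102 to 746, and all genes lower (427) became 675 with no filter, 733 with all groups and 251 to 1106, each range highest without replicate 3 of the untreated knockout. For the untreated Nalm6 sets, the 5 members called lower became 3 with the unstranded column, 3 with all groups and 3 to 6 with 1 left out. Apart from fewer samples in the fits that leave 1 out, the cause was not tested. No comparison had a correlation of deviations over 0.1, the limit set for pairing, in every same-numbered pair, and the main fits used no pairing. With prednisolone in Nalm6 the same-numbered pairs stood at 0.039, 0.066 and 0.044. They stood at 0.047, 0.077 and 0.028 between prednisolone-treated knockout and Nalm6, and at 0.012, 0.009 and 0.017 between the dexamethasone-treated lines. In each of these every library correlated best with its own number, and the limit cannot tell weak pairing from none. The block moved no other count by over 1.5 times. Under it 483 single-member results kept their call, 11 lost and 9 gained one. In all single-member results, DESeq2 changed 24 calls of 503 (17 lost), RLE size factors 5, and no sign turned under either. At 25292579 counts or more, depth limits only the members below about 1 CPM.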

Other observations

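Other pathway genes differed between the untreated Nalm6 groups and between the dexamethasone-treated lines. In the untreated group of the dexamethasone experiment, 14 of 34 further hypoxia targets were higher than in the other untreated group (25.8% of all genes) and 9 lower, the latter near the 24.4% of all genes: BHLHE40 was at 6.56, 6.89 and 8.90 CPM against 2.75, 3.51 and 4.35 (1.13 ± 0.15 log2), whereas LOXL2, a collagen cross-linking enzyme, was lower by 1.58 ± 0.11. Under dexamethasone, 15 of 31 further glycolysis genes were higher in the knockout than in Nalm6 (28.5% of all genes) and 7 lower (28.1% of all genes), the latter share below that of all genes. The inositol transporter SLC2A13 was higher by 1.43 ± 0.12 and G6PC3 lower by 0.60 ± 0.06 log2. Of 8 pentose phosphate genes 3 were lower, led by H6PD (27.2, 27.4 and 25.5 CPM against 48.7, 49.6 and 49.7), and 3 higher, where 28.1% of all genes were lower and 28.5% higher.

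HIF3A, a further hypoxia-inducible factor subunit, was at 3.06, 3.55 and 2.76 CPM in the untreated knockout and at 1.53, 1.55 and 1.65 in untreated Nalm6 (1.01 ± 0.13 log2), and had 0 counts in the untreated CEM libraries. CITED2, which competes with the factors for their coactivators, rose with prednisolone in Nalm6 (0.48 ± 0.06) and in CEM (0.43 ± 0.07), both calls holding without any single library. In the knockout CITED2 was not called with prednisolone (0.05 ± 0.09, adjusted p = 0.697 in edgeR), and the knockout minus parental difference (-0.41 ± 0.11, adjusted p = 0.0439 in edgeR) was lost without any of 8 of the 12 libraries. CITED2 was also called lower with CHIR-99021, in Nalm6 (-0.30 ± 0.07) and in CEM (-0.37 ± 0.08). The Nalm6 call was lost without replicate 1 of CHIR-99021 or any of the 3 untreated libraries (adjusted p of up to 0.134 in edgeR) and with the replicate block, and the CEM call without replicate 2 of CHIR-99021 or replicate 3 of the untreated group (up to 0.064).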
